A study of Homo sapiens with 15 samples.

Results

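The 9 genes described here encode the MHC class II antigen presentation apparatus: the chains HLA-DRA, HLA-DRB1, HLA-DPA1, HLA-DPB1 and HLA-DQB1, the peptide exchange factor chains HLA-DMA and HLA-DMB, the invariant chain CD74, and CIITA, the coactivator that switches these genes on. They were chosen by symbol, and all 9 were present among the 25503 genes of the deposited table. The table holds FPKM, fragment counts scaled by transcript length and library size, from RNA sequencing of 15 libraries. The cells were AsPC-1 and Capan-1, 2 established human lines of pancreatic ductal carcinoma. AsPC-1 was transfected with siNC, a control siRNA, with siB4GALT5, which targets a galactosyltransferase of glycosphingolipid synthesis, or with siB3GNT3, which targets an N-acetylglucosaminyltransferase of O-glycans. Capan-1 received siNC or siB3GNT3. Each of the 5 groups had 3 libraries, all of transfected cells. The dose, the time after transfection and the sequences of the siRNAs are not given in the sources used here. Neither is it stated that replicates came from separate cultures, so the spread behind each p-value is that of these libraries and may be technical. The series concerns MHC class I and CD8 T cells; class II was not the question it names, and mRNA rather than protein at the cell surface was measured.

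MHC class II molecules are pairs of an alpha and a beta chain that show peptides from endosomes to CD4 T cells. The invariant chain CD74 occupies their groove during transport, and HLA-DM, the pair of HLA-DMA and HLA-DMB, removes its last fragment so that peptide can bind. Dendritic cells, macrophages and B cells express class II constitutively, whereas epithelial and carcinoma cells usually do so after interferon gamma, which acts through JAK1, JAK2 and IRF1 on the CIITA gene. CIITA does not bind DNA itself but docks on RFX, CREB and NF-Y proteins assembled on a conserved promoter module, in which an X box is followed by a Y box with the letters ATTGG.

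The chain and exchange factor genes lie on chromosome 6 of GRCh38 (GENCODE 29), from HLA-DRA at chr6:32439842-32445046 to HLA-DPB1 at chr6:33075926-33087201. CD74 lies at chr5:150401637-150412929 and CIITA at chr16:10866222-10943021. The promoter stretches below are shown because they hold letters of the module on which CIITA acts, and because HLA-DRB1 and HLA-DQB1, with like modules, differed widely in level. They come from the RefSeq windows of GRCh38.p14, 250 bases before to 50 after the start site, which were given for 7 of the 9 genes (not for HLA-DRA and CIITA). Each is read 5′ to 3′ on the gene's strand. Capitals mark the X core CNAGNNAC and the Y core ATTGG on either strand; the letters of both were chosen with these promoters known.
HLA-DRB1, chr6:32589878-32589941, minus strand: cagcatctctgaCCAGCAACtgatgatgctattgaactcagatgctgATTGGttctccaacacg
HLA-DQB1, chr6:32666729-32666792, minus strand: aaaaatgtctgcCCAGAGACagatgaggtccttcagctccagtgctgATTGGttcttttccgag
HLA-DMA, chr6:32953160-32953224, minus strand: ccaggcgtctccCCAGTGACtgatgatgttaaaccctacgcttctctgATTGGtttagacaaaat
HLA-DMB, chr6:32941071-32941130, minus strand: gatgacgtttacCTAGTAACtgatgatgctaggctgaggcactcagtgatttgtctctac
HLA-DPB1, chr6:33075879-33075925, plus strand: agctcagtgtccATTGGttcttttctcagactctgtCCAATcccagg
CD74, chr5:150412950-150413049, minus strand: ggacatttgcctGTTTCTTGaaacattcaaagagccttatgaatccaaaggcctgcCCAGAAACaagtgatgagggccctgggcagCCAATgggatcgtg

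An X core followed on the same strand by a Y core, with 10 to 40 bases between them, was found in 3 of the 7 genes with a window: HLA-DRB1 and HLA-DQB1 (27 bases between the cores) and HLA-DMA (28 bases). Among all 35116 windows 1.18% held this pair, whereas the X core, paired or not, was in 39.3% and the Y core in 34.6%. The X core was found in 6 of the 7 genes and the Y core in 6. These are matches of letters in short windows, and a window without one shows only that these letters are absent from it.

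Both siRNA targets were read first. B4GALT5 stood at 38.7, 35.8 and 35.5 FPKM in AsPC-1 siNC and at 8.70, 8.49 and 8.03 FPKM with its siRNA. B3GNT3 stood at 22.5, 23.8 and 23.3 FPKM in AsPC-1 siNC and at 2.527 and 2.504 FPKM in siB3GNT3 replicates 1 and 2. The library labelled AsPC-1 siB3GNT3 replicate 3 (named AS_siB3-5 in its label) had 24.2 FPKM of B3GNT3, so its target was not reduced. Across genes it lay 0.141 to 0.150 log2 units (root mean square) from each control and 0.453 to 0.465 from siB3GNT3 replicates 1 and 2. AS_siB3-5 was therefore set apart, and AsPC-1 siB3GNT3 means replicates 1 and 2 below; that choice rests on the level of the target. In Capan-1, B3GNT3 went from 13.3, 13.2 and 13.7 FPKM to 1.32, 1.67 and 1.84 FPKM.

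Tests were limma fits of log2(FPKM + 1) restricted to genes that reached 1 FPKM in 3 or more of the libraries fitted; a call means an adjusted p under 0.05, adjusted over every gene tested. Fold changes on this scale understate the change of genes with low values. Between 10339 and 11531 genes per library reached 1 FPKM, and read depth is unknown. Of 15 leukocyte markers, 12 were in the table. Of these CORO1A, CD14 and LAPTM5 averaged 4.03, 2.85 and 3.22 FPKM in Capan-1 siNC. The other 9 summed to 0.106 to 0.814 FPKM in every library, and none of them passed 0.478 FPKM anywhere. The 8 ductal epithelium markers summed to 2024 to 2079 FPKM in AsPC-1 siNC and to 4843 to 5077 FPKM in Capan-1 siNC, although CDH1, KRT7 and CEACAM6 averaged only 0.210, 0.298 and 0.301 FPKM in AsPC-1 siNC.

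The lines differed at baseline: Capan-1 transcribed the class II apparatus and AsPC-1, apart from HLA-DMA, hardly did. In AsPC-1, 8 of the 9 genes were under 1 FPKM in every library; in Capan-1, 7 of the 9 were at 1 FPKM or more in every library. In 8 of the 9 genes no siNC library of one line overlapped the other line, the exception being HLA-DQB1. Over all 25503 genes of the table, 32.1% were higher in Capan-1 and 22.0% higher in AsPC-1 without such overlap. By the test, 47.0% of 11656 genes tested were called higher in Capan-1 and 37.9% higher in AsPC-1. All but HLA-DMA of the 7 tested passed the filter through Capan-1 alone and so had to differ. In such bulk samples, fewer cells that express a gene and less RNA per cell cannot be told apart. Among leukocyte markers CD14, LAPTM5 and CORO1A were also called higher in Capan-1, by 1.85 (SE 0.07), 1.52 (SE 0.10) and 0.32 (SE 0.06) on the log2 scale. CD14 and LAPTM5 likewise passed the filter through Capan-1. The 12 markers in the table summed to 10.2 to 10.6 FPKM in Capan-1 siNC and to 3.92 to 4.27 FPKM in AsPC-1 siNC. Their part in the class II levels was not tested.

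**Figure D1:**
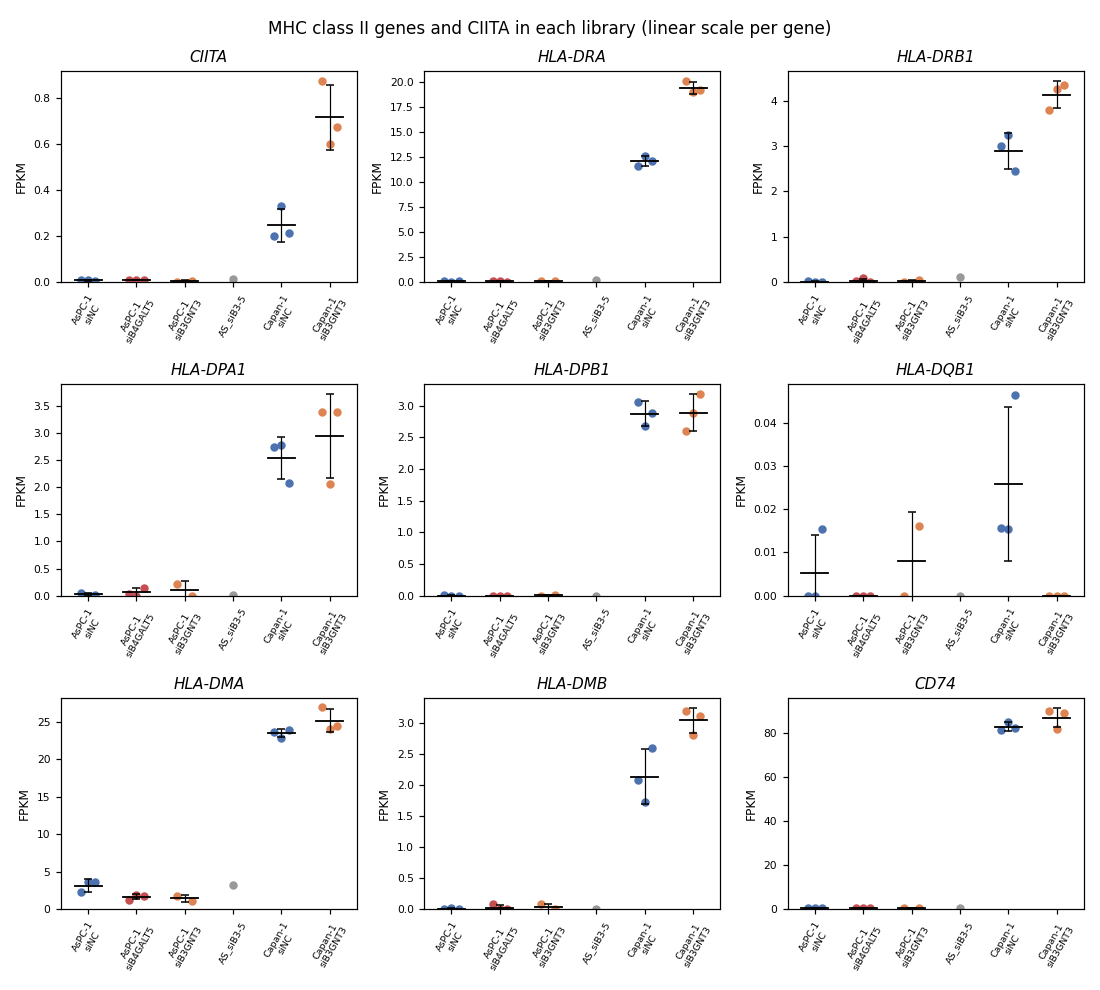
FPKM of each of the 9 genes (vertical axes, linear, 1 scale per gene) in every library (points), by group (horizontal axis), with the group mean (line) and SD (bars); AS_siB3-5 is drawn apart in grey. In 8 of the 9 genes the Capan-1 libraries lie above the AsPC-1 libraries, and CIITA, HLA-DRA, HLA-DRB1 and HLA-DMB lie higher with siB3GNT3 than with siNC in Capan-1.

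CD74 was the most abundant of the 9 in Capan-1. It stood at 81.0, 85.0 and 82.2 FPKM in Capan-1 siNC, and only 684 of the 25503 genes had a higher mean there. In AsPC-1 siNC it stood at 0.490, 0.560 and 0.308 FPKM, so that the ratio of means was 183. The difference, Capan-1 minus AsPC-1, was 5.85 on the log2 scale (SE 0.07, limma adjusted p = 1.39e-12). CD74 passed the filter through Capan-1 alone, so this call was fixed in advance.

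Among the chains, HLA-DRA, the little-varying alpha chain of HLA-DR, led with 11.6, 12.5 and 12.04 FPKM in Capan-1 siNC. Its AsPC-1 siNC values were 0.123, 0.0415 and 0.0817 FPKM, and the log2 difference was 3.59 (SE 0.06, adjusted p = 1.69e-11). HLA-DRB1, the main HLA-DR beta chain, had 2.99, 3.23 and 2.45 FPKM in Capan-1 siNC and was listed at 0 in 4 of 9 AsPC-1 libraries. The Capan-1 siNC levels of HLA-DPA1 and HLA-DPB1, the chains of HLA-DP, were close to each other, at 2.54 ± 0.392 and 2.88 ± 0.194 FPKM (SD, n = 3). In AsPC-1 HLA-DPA1 did not pass 0.216 FPKM, and HLA-DPB1 was listed at 0 in 7 of 9 libraries. Log2 differences between the lines were 1.95 (SE 0.08) for HLA-DRB1, 1.78 (SE 0.08) for HLA-DPA1 and 1.95 (SE 0.06) for HLA-DPB1, all called. The calls of these chains and of HLA-DRA were likewise fixed by a filter passed through Capan-1 alone.

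HLA-DQB1, the beta chain of HLA-DQ, was the chain listed near 0 in both lines. It was listed at 0 in 7 of 9 AsPC-1 libraries and in all 3 Capan-1 siB3GNT3 libraries, and its highest value was 0.0463 FPKM in a Capan-1 siNC library. Its promoter, printed above, holds the X and Y cores with the same 27 bases between them as that of HLA-DRB1. HLA-DQB1 was not tested. Reads of polymorphic HLA genes may be lost, so values near 0 do not show that the gene was silent.

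The exchange factor chains were unequal. HLA-DMA had 23.7, 22.9 and 23.9 FPKM in Capan-1 siNC and 2.23, 3.56 and 3.67 FPKM in AsPC-1 siNC, a log2 difference of 2.58 (SE 0.12, adjusted p = 1.82e-08) and a ratio of means of 7.45. HLA-DMA was the only one of the 9 above 1 FPKM in all AsPC-1 libraries. Its partner HLA-DMB had 2.09, 1.72 and 2.59 FPKM in Capan-1 siNC and was listed at 0 in 6 of 9 AsPC-1 libraries, so that mRNA of the pair in AsPC-1 was almost all HLA-DMA. In Capan-1 siNC, where FPKM correct for transcript length, HLA-DMA averaged 11 times HLA-DMB and CD74 6.87 times HLA-DRA.

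CIITA was low in both lines and ordered them as its targets did. It stood at 0.200, 0.331 and 0.213 FPKM in Capan-1 siNC and at 0.00897, 0.0104 and 0.00637 FPKM in AsPC-1 siNC. Its mean in Capan-1 siNC was exceeded by 13682 genes. CIITA did not reach the filter, and in a fit with no filter the log2 difference was 0.31 (adjusted p = 0.00107); with a pseudocount of 0.1 as well it was 1.66 (adjusted p = 1.80e-04). Of other class II rows, 4 were in the table. HLA-DOB, a chain of the HLA-DM inhibitor HLA-DO, was higher in Capan-1 by 1.30 on the log2 scale, while HLA-DOA, its partner, did not pass 0.0309 FPKM in any library. HLA-DOB did not pass 0.667 FPKM in AsPC-1, so it too was tested through Capan-1 alone and had to differ. HLA-DRB5 was listed at 0 in all AsPC-1 libraries and reached 0.293 FPKM in Capan-1 siNC.

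The factors that bind class II promoters differed in both directions between the lines, and most regulators were higher in Capan-1. Of 7 such factors, 6 were tested; RFX5, RFXANK, NFYA and NFYC were higher in Capan-1 and NFYB and CREB1 higher in AsPC-1. NFYA differed by 0.97 (SE 0.06), NFYB by -0.60 (SE 0.05), and RFX5, the DNA-binding subunit of RFX, by 0.24 (SE 0.05). The list's median was 0.20, beside 0.09 for all genes tested. Among 10 regulators tested, 7 were higher in Capan-1 and 1, NLRC5, was higher in AsPC-1, with a list median of 1.09. The interferon gamma receptor chain IFNGR1 differed by 1.93 (SE 0.06) and JAK1 by 1.43 (SE 0.05). PRDM1, a repressor that acts on CIITA in plasma cells, differed by 1.43 (SE 0.06), but it passed the filter through Capan-1 and so had to differ. NLRC5, the CIITA relative that drives MHC class I, differed in the other direction, with 5.34 ± 0.521 FPKM in AsPC-1 siNC and 1.99 ± 0.0831 FPKM in Capan-1 siNC (SD, n = 3; log2 difference -1.08, SE 0.07).

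Of 13 endosomal processing genes tested, 7 were higher in Capan-1 and 4 higher in AsPC-1. The cathepsins that trim the invariant chain and its cargo went both ways: CTSH differed by 3.58 (SE 0.07) and CTSS, the cathepsin of antigen-presenting cells, by 2.33 (SE 0.08), whereas CTSC differed by -2.0 (SE 0.04). CTSH and CTSS did not reach the filter in the AsPC-1 fits. They were tested here through Capan-1, where they are high, and so had to differ. Of 8 surface molecules that act beside class II, 3 were tested, and CD40 and ICAM1 were called higher in Capan-1. CD58 differed by -0.21 (SE 0.09, adjusted p = 0.0582) and was not called. CD40 averaged 9.06 FPKM in Capan-1 siNC and 0.00311 FPKM in AsPC-1 siNC, and ICAM1 34.6 and 0.148 FPKM. Both passed the filter through Capan-1 and so had to differ. All 10 interferon gamma response genes tested were higher in Capan-1, with a median of 1.24, as were 19 of 21 interferon-stimulated genes and all 6 MHC class I genes tested. These counts include genes that passed the filter through Capan-1 and so had to differ, among them GBP4, ICAM1, MX1 and MX2.

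In Capan-1, siB3GNT3 raised HLA-DRA, HLA-DRB1 and HLA-DMB, 3 of the 7 class II genes tested, and none of the 7 fell, also at an unadjusted p under 0.05. This compares with a background in which 18.7% of 11493 genes tested rose and 14.2% fell. The median over the 7 was 0.14, beside 0.02 for all genes tested. CD74, HLA-DMA, HLA-DPA1 and HLA-DPB1 did not pass the test, so the response was uneven within the family.

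HLA-DRA had the smallest adjusted p of the 7. Its 11.6, 12.5 and 12.04 FPKM with siNC stood against 20.1, 18.9 and 19.2 FPKM with siB3GNT3. The groups did not overlap and the ratio of means was 1.61. The log2 fold change was 0.64 (SE 0.07, 95% interval 0.49 to 0.80, adjusted p = 4.77e-04). HLA-DRA was called in each of 14 alternative fits, with log2 fold changes of 0.60 to 0.68.

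HLA-DRB1, which pairs with HLA-DRA, rose from 2.99, 3.23 and 2.45 to 3.79, 4.27 and 4.35 FPKM. These groups did not overlap either, and the log2 fold change was 0.40 (SE 0.10, adjusted p = 0.0165). The call was lost in 5 of 14 alternatives, with adjusted p up to 0.0642, among them fits with no filter or without siNC replicate 1, siNC replicate 3 or siB3GNT3 replicate 2. HLA-DRB5, a near-identical beta chain gene that can share reads with HLA-DRB1, had 0.223, 0.0550 and 0.293 FPKM in the controls and 0.916, 0.269 and 0.953 FPKM after knockdown. The call for HLA-DRB1 was kept when all HLA-DRB rows were summed.

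HLA-DMB rose from 2.09, 1.72 and 2.59 to 3.20, 2.81 and 3.11 FPKM, also without overlap. Its log2 fold change was 0.38 (SE 0.11, adjusted p = 0.0342), and 6 of 13 alternatives took it above the threshold, with adjusted p up to 0.120. Among them were the fits without siNC replicate 1, siNC replicate 2, siB3GNT3 replicate 1 or siB3GNT3 replicate 2. HLA-DOB, outside the 9, rose from 2.35, 2.20 and 3.15 to 3.17, 3.81 and 3.65 FPKM (log2 fold change 0.35, SE 0.11, adjusted p = 0.0453), and with no filter its adjusted p was 0.134.

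CIITA itself stood at 0.200, 0.331 and 0.213 FPKM with siNC and at 0.876, 0.601 and 0.677 FPKM with siB3GNT3. All siB3GNT3 libraries were above all siNC libraries, and the ratio of means was 2.89. These levels are under the filter. In the fit with no filter, in which 6.68% of 22473 genes rose, the log2 fold change was 0.46 (adjusted p = 0.0205), and with a pseudocount of 0.1 it was 1.24 (adjusted p = 0.0253). An exact two-sided permutation test gave p = 0.1, the smallest that 3 against 3 libraries allow. Without siNC replicate 1, 2 or 3 the unfiltered fit gave adjusted p of 0.0845, 0.0564 and 0.0872, so the call rested on every control library.

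Of the 7 tested, 4 did not pass. CD74 had 81.0, 85.0 and 82.2 FPKM in the controls and 89.8, 81.7 and 88.9 FPKM after knockdown; the groups overlapped, and the log2 fold change was 0.07 (95% interval -0.08 to 0.21). HLA-DMA went from 23.5 ± 0.547 to 25.1 ± 1.54 FPKM (SD, n = 3); its groups did not overlap, but the log2 fold change of 0.09 (95% interval -0.06 to 0.25) was not called. HLA-DPA1 had an interval of -0.21 to 0.50, with siB3GNT3 replicate 2 at 2.05 FPKM beside 3.38 and 3.39 FPKM. HLA-DPB1 averaged 2.88 and 2.89 FPKM (95% interval -0.20 to 0.21). HLA-DPA1 and HLA-DPB1 overlap on opposite strands, and no source used here says whether counting used strand, so their separate levels are uncertain. The intervals of CD74, HLA-DMA and HLA-DPB1 lie below that of HLA-DRA. With siB3GNT3 the ratio of mean CD74 to mean HLA-DRA went from 6.87 to 4.48 and that of HLA-DRA to HLA-DPB1 from 4.19 to 6.71.

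**Figure D2:**
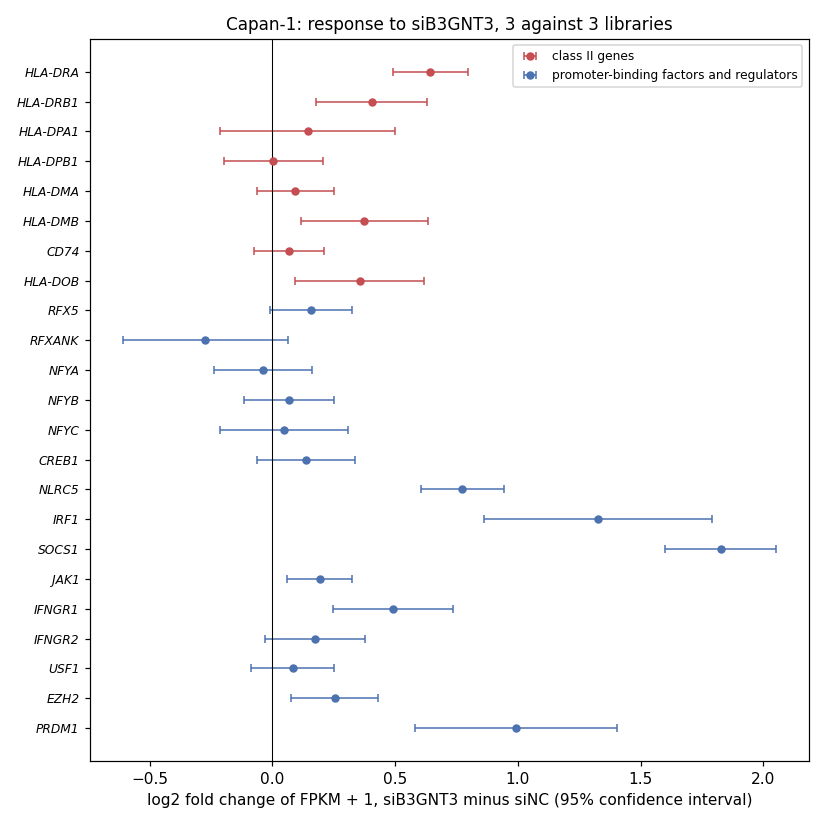
Log2 fold change of FPKM + 1 in Capan-1, siB3GNT3 minus siNC (horizontal axis), with 95% confidence intervals, for class II genes (red) and for promoter-binding factors and regulators (blue), from 3 against 3 libraries. HLA-DRA lies at 0.64 and HLA-DPB1 at 0.00, and SOCS1 lies farthest to the right at 1.83.

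The factors that bind class II promoters gave no call in Capan-1: of 6 tested limma called 0, with 0 at an unadjusted p under 0.05, and their median was 0.06. RFX5 went from 16.5 ± 0.840 to 18.6 ± 1.05 FPKM and RFXANK from 21.7 ± 1.78 to 18.0 ± 4.34 FPKM (SD, n = 3), neither called; their unadjusted p were 0.0596 and 0.0979. The regulators moved in 1 direction. Of 10 tested, 8 rose and 0 fell, also at an unadjusted p under 0.05, with a median of 0.63. SOCS1, the feedback inhibitor of JAK kinases, rose from 6.94, 6.80 and 6.36 to 29.1, 27.6 and 22.6 FPKM (log2 fold change 1.83, SE 0.10). IRF1, a factor that acts on the CIITA promoter, rose from 11.6, 10.7 and 11.7 to 38.3, 34.7 and 20.3 FPKM (log2 fold change 1.33, SE 0.20), with siB3GNT3 replicate 3 below the other two. NLRC5 rose from 1.99 to 4.11 FPKM (log2 fold change 0.77, SE 0.07).

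**Figure D3:**
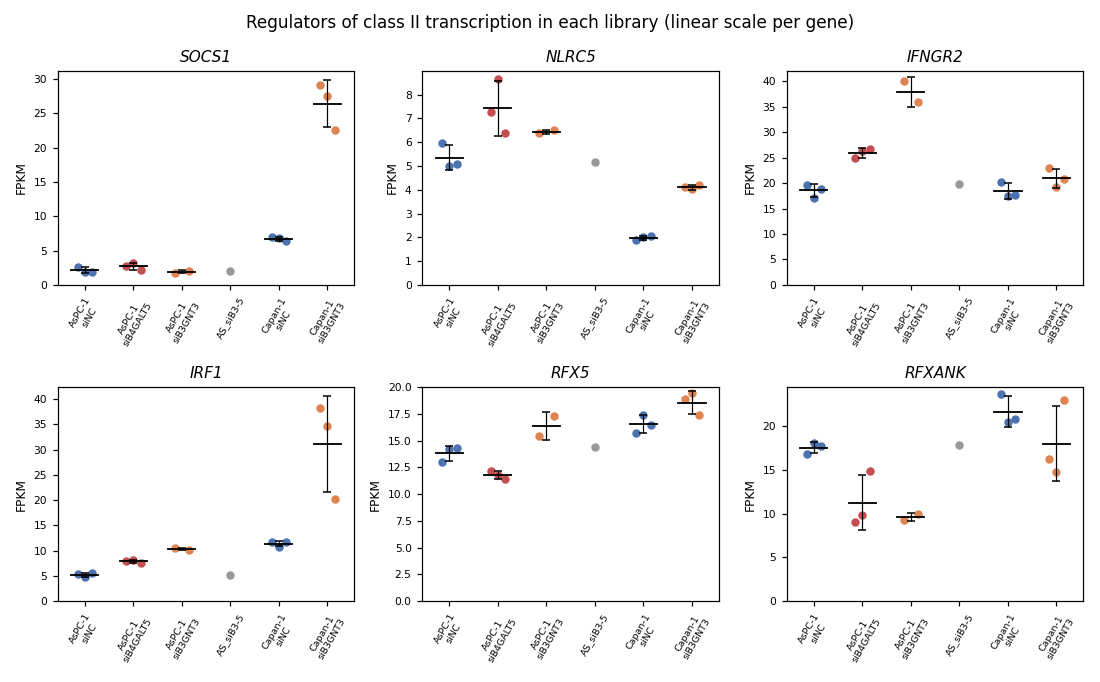
FPKM of 6 regulators of class II transcription (vertical axes, linear, 1 scale per gene) in every library (points), by group (horizontal axis), with the group mean (line) and SD (bars); AS_siB3-5 is drawn apart in grey. SOCS1 rises in Capan-1 with siB3GNT3, from 6.70 to 26.4 FPKM, RFXANK is lower in AsPC-1 with either siRNA, and IRF1 is higher in every knockdown group than in its control.

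Genes that respond to interferon also rose in Capan-1 with siB3GNT3. Of 11 interferon gamma response genes tested 10 rose, with a median of 0.80; TAP1 rose by 1.02 (SE 0.07), IDO1 by 1.10 (SE 0.11) and GBP1 by 0.80 (SE 0.08) on the log2 scale. All 22 interferon-stimulated genes rose, with a median of 1.01. IDO1 and CMPK2, counted here, did not reach the filter in the baseline fit, which held the Capan-1 siNC libraries. Both were tested here with the help of siB3GNT3 libraries, where they are high, so the filter favoured their rise. HLA-B, HLA-C and B2M rose among 6 MHC class I genes tested. Processing genes split, with 3 of 13 higher and 3 lower: CTSB and CTSL, lysosomal cathepsins, rose by 0.36 and 0.71, while the adaptor subunit AP1B1 and SPPL2A, the protease that removes the last CD74 stub, fell by 0.39 and 0.36. ICAM1 was the only one of 4 accessory surface molecules to rise.

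Markers of other cells moved in part with this comparison. The 12 leukocyte markers summed to 10.2 to 10.6 FPKM with siNC and to 8.997 to 9.98 FPKM with siB3GNT3; CD14 rose, and LAPTM5 and CORO1A fell. PTPRC, which marks all leukocytes, did not pass 0.0463 FPKM in any Capan-1 library. The 8 epithelial markers summed to 4843 to 5077 FPKM with siNC and to 3112 to 3964 FPKM with siB3GNT3. Of these 5 fell, while CDH1 rose by 0.40 (SE 0.08) on the log2 scale. The part of these shifts in the class II levels was not tested.

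In AsPC-1 the class II genes stayed near 0 with either siRNA, apart from HLA-DMA. HLA-DMA alone reached the filter, and it was lower with either siRNA. With siB4GALT5 35.2% of 10775 genes tested rose and 23.0% fell; with siB3GNT3 32.5% rose and 20.4% fell. Both knockdowns share the siNC libraries.

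HLA-DMA had 2.23, 3.56 and 3.67 FPKM with siNC, 1.29, 1.88 and 1.78 FPKM with siB4GALT5, and 1.76 and 1.14 FPKM with siB3GNT3. Both knockdown groups lay below all siNC libraries. With siB4GALT5 it fell by 0.64 on the log2 scale (SE 0.16, 95% interval -1.0 to -0.27, adjusted p = 0.00786). With siB3GNT3 it fell by 0.75 (SE 0.18, 95% interval -1.16 to -0.35, adjusted p = 0.00660). AS_siB3-5, whose target was not reduced, had 3.21 FPKM, inside the siNC range. With AS_siB3-5 kept in its labelled group the siB3GNT3 change was -0.49 (adjusted p = 0.204) and the adjusted p for siB4GALT5 was 0.0615. Without siB3GNT3 replicate 2 the change was -0.57 (adjusted p = 0.0741).

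The knockdowns were not told apart at HLA-DMA. The difference, siB4GALT5 minus siB3GNT3, was 0.12 (95% interval -0.29 to 0.52, adjusted p = 0.647), in a comparison in which 17.8% of genes tested were higher with siB4GALT5 and 17.4% lower. That interval does not show that the siRNAs acted alike, and its sign turned without siB3GNT3 replicate 2 (-0.06). HLA-DMA ends at chr6:32969094 in GENCODE 29 and so overlaps BRD2, which starts at chr6:32968660 on the other strand. BRD2 went the other way, from 54.8 FPKM with siNC to 80.8 and 76.4 FPKM with siB4GALT5 and siB3GNT3.

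The other 8 genes stayed under 1 FPKM in AsPC-1. CD74 had 0.490, 0.560 and 0.308 FPKM with siNC, 0.384, 0.588 and 0.528 FPKM with siB4GALT5, and 0.642 and 0.570 FPKM with siB3GNT3. HLA-DRA had 0.105, 0.125 and 0 FPKM with siB4GALT5 and 0.123 and 0.106 FPKM with siB3GNT3. Its highest AsPC-1 value, 0.185 FPKM, was in AS_siB3-5. CIITA had 0.0105, 0.0104 and 0.0102 FPKM with siB4GALT5 and 0.00128 and 0.00658 FPKM with siB3GNT3, where siNC had 0.00637 to 0.0104 FPKM. In the fits with no filter limma called 0 of these 8 genes with either siRNA, also at an unadjusted p under 0.05. For CD74 the log2 fold change was 0.05 (SE 0.08, adjusted p = 0.740) with siB4GALT5 and 0.15 (SE 0.09, adjusted p = 0.313) with siB3GNT3. Over the 8 genes the adjusted p lay between 0.462 and 0.952 with siB4GALT5 and between 0.313 and 0.947 with siB3GNT3. Values near 0 can hardly move on this scale, so the missing calls do not show that these genes did not respond. Ratios of means over siNC ran from 0 (HLA-DPB1) to 5.08 (HLA-DRB1) with siB4GALT5. With siB3GNT3 the range was 0.459 (CIITA) to 5.91 (HLA-DMB), all from values near 0.

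**Figure D4:**
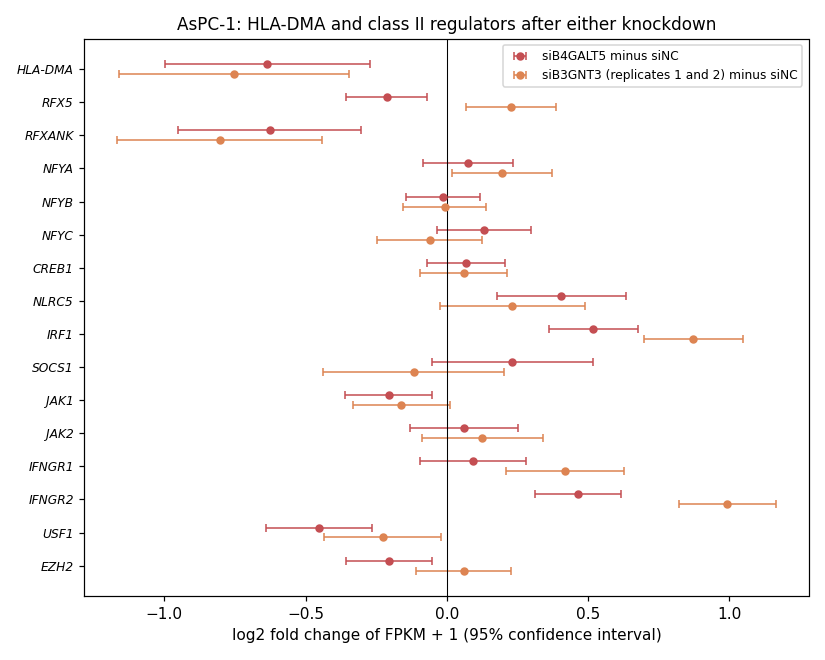
Log2 fold change of FPKM + 1 in AsPC-1 (horizontal axis), with 95% confidence intervals, for HLA-DMA and genes that control class II transcription, with siB4GALT5 (red, 3 libraries) and siB3GNT3 (orange, replicates 1 and 2) against the same 3 siNC libraries. HLA-DMA and RFXANK lie left of 0 with either siRNA, RFX5 lies on opposite sides, and IRF1 lies at 0.52 and 0.87.

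IRF1 and IFNGR2 rose in AsPC-1 with either siRNA. IRF1 went from 5.19 ± 0.445 FPKM (SD, n = 3) with siNC to 7.86 ± 0.343 FPKM (SD, n = 3) with siB4GALT5 and 10.3 ± 0.172 FPKM (SD, n = 2) with siB3GNT3. The receptor chain IFNGR2 went from 18.6 to 26.0 and 37.9 FPKM. Of 10 regulators tested, 4 rose and 3 fell with siB4GALT5 (median 0.16), USF1, a factor of the CIITA promoter, falling by 0.45 (SE 0.08). With siB3GNT3 limma called 4 as risen and 0 as fallen (1 at an unadjusted p under 0.05), with a median of 0.18. IRF1 and IFNGR2 were lower with siB4GALT5 than with siB3GNT3, with log2 differences of -0.35 and -0.53, both called.

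Among the 6 promoter-binding factors tested, RFXANK, a subunit of the RFX complex, fell in both. It had 16.9, 18.1 and 17.7 FPKM with siNC, 9.10, 9.83 and 14.9 FPKM with siB4GALT5, and 9.32 and 9.95 FPKM with siB3GNT3. Replicate 3 of siB4GALT5 lay between the other libraries of its group and the controls. The log2 fold changes were -0.63 (SE 0.14) and -0.80 (SE 0.16). RFX5 fell with siB4GALT5, by 0.21 (SE 0.06), and rose with siB3GNT3, by 0.23 (SE 0.07). The difference between the siRNAs at RFX5 was -0.44 (SE 0.07, adjusted p = 0.00145).

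Of 11 processing genes tested in AsPC-1, 5 rose and 3 fell with siB4GALT5, and 1 rose and 4 fell with siB3GNT3. IFI30, the lysosomal thiol reductase that opens disulfides of antigens, went from 23.0 FPKM to 14.7 and 16.5 FPKM. MARCHF8, a ubiquitin ligase that can turn over surface class II, went from 1.54 to 2.81 and 2.51 FPKM. Of 19 interferon-stimulated genes tested, 19 rose with siB4GALT5 (median 2.22) and 18 with siB3GNT3 (median 1.74), and 4 of 8 interferon gamma response genes rose with each. The interferon-stimulated counts include XAF1 and IFI27, with ratios of means, siB4GALT5 over siNC, of 13.1 and 37.6. Both reached the filter only with the help of knockdown libraries, where they are high, so the filter favoured their rise. The 12 leukocyte markers summed to 3.92 to 4.27 FPKM with siNC, 1.92 to 2.32 FPKM with siB4GALT5 and 1.20 to 1.68 FPKM with siB3GNT3, a fall carried by CORO1A, from 3.03 to 1.36 and 0.625 FPKM. PTPRC did not pass 0.160 FPKM in any AsPC-1 library. The part of these markers in the result was not tested.

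The response to siB3GNT3 was then compared between the lines as an interaction, Capan-1 minus AsPC-1, in 14 libraries. HLA-DRA (0.60, SE 0.10, adjusted p = 5.85e-04), HLA-DRB1 (0.38, SE 0.12, adjusted p = 0.0245) and HLA-DMA (0.85, SE 0.20, adjusted p = 0.00649) were called higher in Capan-1. In this comparison 13.8% of 12236 genes tested were higher and 19.0% lower. HLA-DRA and HLA-DRB1 passed the filter through Capan-1 alone, and their AsPC-1 values near 0 can hardly move on the scale of log2(FPKM + 1), so these calls follow the Capan-1 change and say nothing of a response in AsPC-1. With a pseudocount of 0.1 neither was called (adjusted p = 0.422 and 0.456). The HLA-DRB1 call was lost in 7 of 23 alternatives, with adjusted p up to 0.607. Among them were the fits without AsPC-1 siNC replicate 1, AsPC-1 siB3GNT3 replicate 1, AsPC-1 siB3GNT3 replicate 2 or Capan-1 siNC replicate 3 (adjusted p of 0.0521, 0.0922, 0.0555 and 0.0508). For HLA-DMA, expressed in both lines, the difference came from the AsPC-1 fall and was 0.58 (adjusted p = 0.205) with AS_siB3-5 kept in its labelled group. HLA-DMB differed by 0.33 (limma adjusted p = 0.0738) and CD74 by -0.08 (95% interval -0.33 to 0.17). Both passed the filter through Capan-1 alone, so these values too say nothing of a response in AsPC-1. With no filter and a pseudocount of 0.1 the differences were 0.19 (SE 0.40) and -0.31 (SE 0.25).

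Among 11 regulators 4 were called higher and 1 lower in Capan-1 in this difference. SOCS1 differed by 1.94 (SE 0.18), NLRC5 by 0.54 (SE 0.14), PRDM1 by 0.96 (SE 0.21) and IFNGR2 by -0.82 (SE 0.12). PRDM1 passed the filter through Capan-1, so its call follows the Capan-1 change and says nothing of a response in AsPC-1. Of the 7 promoter-binding factors tested limma called 0, with 2 at an unadjusted p under 0.05. Of 22 interferon-stimulated genes 4 were higher and 10 lower in Capan-1 in this difference. Of these 4, MX1, MX2 and CMPK2 did not reach the filter in the AsPC-1 fits. Their ratios of means, siB3GNT3 over siNC, were larger in AsPC-1 (4.17, 12.9 and 10.8) than in Capan-1 (3.04, 4.02 and 2.57). Their calls on this scale therefore do not show a larger response in Capan-1. STAT2 had a ratio of 1.05 in AsPC-1 and 1.53 in Capan-1.

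The genes with the pattern most like the members' mean over 14 libraries were CYP2C18, DUOX2, CCDC152, BTBD6 and PCDHA12, with Pearson r from 0.9994 to 0.9996. The points share 2 lines, and the gap between the lines sets these values. CYP2C18 averaged 9.53 FPKM in Capan-1 siNC and 0.0366 FPKM in AsPC-1 siNC. Over the 8 AsPC-1 libraries, where HLA-DMA alone entered, the 5 genes most like it were LOC102723480, DLD, AMIGO3, BCAP31 and COL9A3, with r from 0.948 to 0.982. These are the highest values of a search over all genes that passed the filter. The gap between siNC and the knockdown groups enters them.

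Across the 5 groups the order was alike for most of the 9 genes. Capan-1 siB3GNT3 was highest and Capan-1 siNC next in 8 of the 9, the exception again being HLA-DQB1. These neighbours overlapped in CD74, HLA-DPA1 and HLA-DPB1 and did not overlap in HLA-DRA, HLA-DRB1, HLA-DMA, HLA-DMB and CIITA. The shares of all genes with this order or without this overlap were not counted, so whether the members stand out cannot be said. By the test, another criterion, 18.7% of 11493 genes tested rose in Capan-1 with siB3GNT3. The AsPC-1 groups overlapped with their neighbours in the order in each of the 9 genes except HLA-DMA, where siNC lay above both knockdown groups.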

How the data were processed

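RNA was sequenced from 15 libraries of 2 lines. The authors deposited 1 table of FPKM per gene and library, made per the submitters' processing notes with Bowtie2, RSEM 1.3.1 and DESeq2 1.4.5 on GRCh38; the role of each tool, the annotation and the strand setting are not given in the sources used here, and depth is unknown. HLA genes are polymorphic and have near-identical copies, so reads may be lost or shared. From these FPKM, log2(FPKM + 1) was tested with limma 3.58.1 (R 4.3.3), trend included, for genes of at least 1 FPKM in 3 libraries of the fit, with Benjamini-Hochberg adjustment over all genes tested. The Capan-1 and baseline fits held 6 libraries each, the AsPC-1 fits 8 (all groups sharing the spread) and the interaction 14. AS_siB3-5 was left out of these. Samples of Capan-1 were assigned by title. Tests were tested on simulated data. Every member is named, and from each other list up to 4 genes per comparison with the smallest p; BRD2, HLA-DOA, HLA-DRB5 and further genes of levels or markers were chosen after their values were seen. One regulator counted in the lists is not reported here by name. Members and lists were chosen with earlier results of these data known. Alternatives were pseudocount 0.1, no filter, a filter of 5 FPKM, median-ratio scaling, a common sum, no trend, a replicate block, each library left out, AS_siB3-5 kept, other groups in the fit and summed HLA-DRB rows; fits with no filter and pseudocount 0.1, and those of CIITA in Capan-1, were added after the data were seen. Promoters were read from RefSeq windows and figures drawn with matplotlib 3.10.9 in Python 3.11.15.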

Additional observations from a re-analysis of the deposited data

Results flagged for a closer look

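The interaction in limma over 14 libraries, the siB3GNT3 response in Capan-1 minus that in AsPC-1 on the log2 scale, was called for 3 of the genes. For HLA-DRA and HLA-DRB1, near 0 in AsPC-1 and tested through Capan-1 alone, this follows the Capan-1 change and says nothing of a response in AsPC-1. HLA-DRA differed by 0.60: it rose in Capan-1 from 12.05 to 19.4 FPKM, while AsPC-1 had 0.0821 FPKM with siNC and 0.114 FPKM with siB3GNT3. HLA-DRB1 differed by 0.38, with 2.89 and 4.14 FPKM in Capan-1 and 0.00691 and 0.0213 FPKM in AsPC-1. With pseudocount 0.1 the values were 0.43 and 0.34, with adjusted p of 0.422 and 0.456, which does not tell whether the lines differed in fold. HLA-DMA differed by 0.85: it went from 23.5 to 25.1 FPKM in Capan-1 and from 3.15 to 1.45 FPKM in AsPC-1. With AS_siB3-5 kept in its labelled group HLA-DMA differed by 0.58 (adjusted p = 0.205), and HLA-DRB1 by 0.35 (adjusted p = 0.0710).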

How the results depend on the processing

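Over 309 alternatives for 21 results of single genes, 276 kept direction and side of the threshold, 28 lost the call and 5 turned direction, none of the 5 called in the first place. HLA-DPB1 in Capan-1 turned to -0.032 with median-ratio scaling, and with 1 library left out lay between -0.050 (without siB3GNT3 replicate 3) and 0.058, at -0.034 without siNC replicate 2. HLA-DMA, siB4GALT5 minus siB3GNT3, turned to -0.15 with AS_siB3-5 kept in its labelled group and lay between -0.064 (without siB3GNT3 replicate 2) and 0.30 with 1 library left out. All 7 baseline results kept their call in each alternative that tested them, 15 for HLA-DMA and 11 or 12 for the others, which no longer passed the filter with a Capan-1 control left out and, HLA-DRA and CD74 apart, with the filter at 5 FPKM. Apart from HLA-DMA, these genes passed the filter through Capan-1 alone and had to differ, so their calls in the filtered fits were fixed in advance. With AS_siB3-5 kept, the genes called for siB3GNT3 in AsPC-1 went from 5697 to 0 (limma, 3011 at an unadjusted p under 0.05), those between the siRNAs from 3789 to 1716 and those of the interaction from 4009 to 1204. Leaving out 1 library each gave 8368 to 9288 genes at baseline, 5366 to 6863 for siB4GALT5, 4071 to 6700 for siB3GNT3 in AsPC-1, 2134 to 4865 between the siRNAs, 2069 to 5715 in Capan-1 and 2839 to 5036 for the interaction. In Capan-1, where 3786 were called, the count was 2069, 2083 and 2112 without siNC replicate 1, 2 and 3, and 5715 without siB3GNT3 replicate 3; between the siRNAs it was 2134 and 2190 without siB3GNT3 replicate 1 and 2. The cause was not tested. Replicate numbers did not pair the libraries: over 26 same-numbered pairs the deviations from the group means correlated at -0.132 to 0.0632, and 0 passed 0.1. With the replicate block 9831 genes were called at baseline, 6285 for siB4GALT5, 5470 for siB3GNT3 in AsPC-1, 3623 between the siRNAs, 3311 in Capan-1 and 3940 for the interaction; CIITA in Capan-1 lost its call in the unfiltered fit (adjusted p = 0.0886), and the block changed no other call. Depth is unknown, so values near 0 in AsPC-1 carry no counting interval.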
